A study of Mus musculus with 6 samples.

Results

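Toll-like receptors (TLRs) are membrane receptors of innate immunity that recognize molecules of microbes and of damaged cells. The family was followed here in the right hippocampus of mice after bilateral carotid artery stenosis (BCAS). It was taken as 10 genes matched by symbol among the 54752 genes listed: 5 receptors of the cell surface (Tlr1, Tlr2, Tlr4, Tlr5 and Tlr6) and 5 receptors of the endosome (Tlr3, Tlr7, Tlr8, Tlr9 and Tlr13). Each library came from the entire right hippocampus of 1 mouse, and there were 3 libraries per group. Mice were male C57BL/6 J by the study's methods, and WT, C57BL/6 and 14 weeks old by the labels, and tissue was taken 3 weeks after surgery. BCAS mice carried a microcoil of 0.16 mm inner diameter around the right common carotid artery and one of 0.18 mm around the left. Sham surgery left the microcoils out. The question put to the family was which receptors changed with hypoperfusion, and whether surface and endosomal receptors changed alike.

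TLR proteins bind their ligand with an outer domain of leucine-rich repeats and signal through an inner TIR domain. The adaptor MyD88 serves nearly every family member, whereas TRIF serves TLR3 and, from endosomes, TLR4. The signal ends in NF-kappa B and interferon regulatory factors, which switch on cytokines, chemokines and type I interferons. Surface receptors are known for microbial lipids and proteins, and endosomal receptors for nucleic acids. In the brain microglia are the main cells known to carry most of them, and TLR3 is also known from astrocytes.

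Read counts were expressed as CPM, a count relative to the library total corrected by a TMM factor. For the comparison of the groups, 18617 genes passed the filter on low counts and entered the quasi-likelihood test of edgeR. A gene was called when its adjusted P was under 0.05 and its absolute log2 fold change (log2FC) above 1. All 10 receptors passed the filter on low counts. After BCAS, 9 of the 10 were called higher and none lower, where 8.47% of the tested genes were called higher and 0.999% lower. The median log2FC was 3.32 over the 10 receptors and 0.018 over all tested genes. In the same 9 receptors every BCAS mouse lay above every sham mouse, a pattern seen in 25.3% of tested genes. Surface receptors were called in 4 of 5 cases, with a median log2FC of 3.26. Endosomal receptors were called in 5 of 5 cases, with a median of 3.38. Endosomal calls included Tlr8, which had at most 3 counts in each sham mouse and passed the filter on low counts through the BCAS group. With counts divided by the mates of a read pair, Tlr5 and Tlr8 fell below that filter. Then 4 surface and 4 endosomal receptors were called. Both classes held a receptor with a small change, Tlr5 at the surface and Tlr3 in the endosome, and the ranges of the other receptors overlapped between the classes. BCAS mouse 3 had the highest level of the 6 mice for 8 of the 10 receptors.

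**Figure D1:**
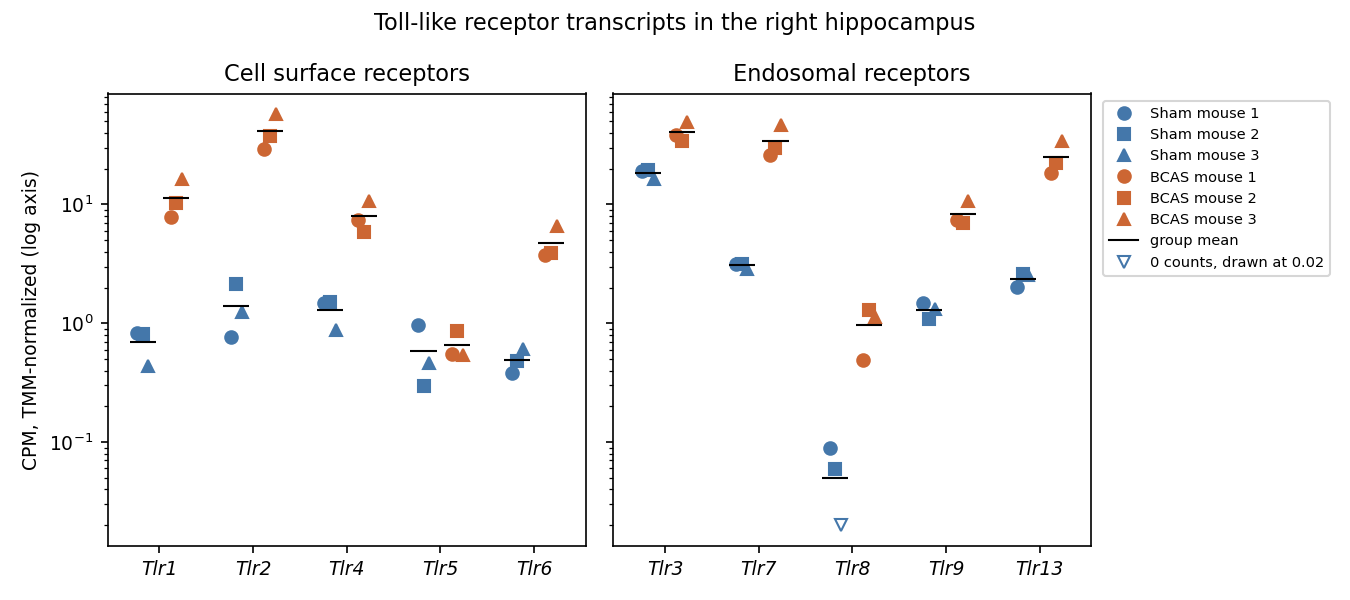
TMM-normalized CPM (log axis) of each receptor in each mouse, with sham mice in blue, BCAS mice in orange and black bars at the group means; an open triangle marks a library with 0 counts. The groups are apart for 9 receptors and overlap for Tlr5.

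Tlr2 had the largest fitted change of the family, although its interval of 4.06 to 5.74 on the log2 scale lay within that of Tlr8, and without sham mouse 1 the log2FC of Tlr8 (4.86) was above that of Tlr2 (4.60). The protein recognizes bacterial lipoproteins together with TLR1 or TLR6. The gene (ENSMUSG00000027995.10, chr3:83836272-83841767 of mm10, minus strand) gave 0.767, 2.15 and 1.25 CPM in sham mice 1 to 3 and 29.3, 37.6 and 57.7 CPM in BCAS mice 1 to 3. The lowest BCAS mouse lay far above the highest sham mouse, and the sham mice differed more among themselves in proportion than the BCAS mice did. The group means were 1.39 ± 0.703 and 41.6 ± 14.6 CPM (SD, n = 3 each), a 29.9-fold difference. The log2FC was 4.90 (SE 0.37, edgeR adjusted P = 4.09e-05).

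Tlr1 and Tlr6 code for the partners of TLR2, for triacylated and diacylated lipoproteins respectively. Tlr1 (ENSMUSG00000044827.10, chr5:64924679-64933563, minus strand) had 0.826, 0.807 and 0.437 CPM in sham mice and 7.84, 10.2 and 16.3 CPM in BCAS mice. Its log2FC was 4.05 (SE 0.35, edgeR adjusted P = 7.46e-05). Both partners were low in every sham mouse and clearly apart in every BCAS mouse. Tlr6 (ENSMUSG00000051498.6, chr5:64952031-64960097, minus strand) had 0.383, 0.478 and 0.612 CPM in sham mice and 3.72, 3.94 and 6.60 CPM in BCAS mice. Its log2FC was 3.26 (SE 0.33, edgeR adjusted P = 1.65e-04), and its 95% confidence interval of 2.52 to 4.01 overlapped that of Tlr1, 3.26 to 4.84.

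Tlr1 and Tlr6 are neighbours on chromosome 5, 18.5 kb apart, and their coding sequences hold identical stretches. Of all 75-base windows of the Tlr1 transcript 11.5% also occurred in Tlr6, and 9.44% of the Tlr6 windows occurred in Tlr1. The transcripts of the other 8 receptors shared no such window with another gene. Reads with more than 1 alignment were left out of the counts, but the windows are shorter than the reads and a mate outside a stretch can place its partner. How many reads were lost to either gene was not tested. The longest stretch of 229 bases is shown because it bears on how far these counts can be assigned; it lies at chr5:64925537-64925765 in Tlr1 (coding bases 1468 to 1696) and at chr5:64953828-64954056 in Tlr6 (coding bases 1507 to 1735), both read 5′ to 3′ on the minus strand of GRCm38.
Tlr1 and Tlr6 shared stretch: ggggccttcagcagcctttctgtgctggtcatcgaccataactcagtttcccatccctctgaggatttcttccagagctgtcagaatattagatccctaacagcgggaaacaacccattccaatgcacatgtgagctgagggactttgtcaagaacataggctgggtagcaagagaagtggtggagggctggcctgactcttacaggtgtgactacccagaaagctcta

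Tlr4 codes for the receptor of bacterial lipopolysaccharide, which works with MD-2 and CD14. The gene (ENSMUSG00000039005.13, chr4:66827584-66930284, plus strand) had 1.47, 1.53 and 0.874 CPM in sham mice and 7.44, 5.90 and 10.6 CPM in BCAS mice. The groups did not overlap. With a log2FC of 2.63 (SE 0.30, edgeR adjusted P = 3.05e-04), Tlr4 had the smallest change among the 4 surface receptors that rose.

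Tlr5, the receptor of bacterial flagellin, was the family member that was not called. The gene (ENSMUSG00000079164.8, chr1:182954788-182976044, plus strand) gave 33, 10 and 16 counts in the sham group and 18, 26 and 17 in the BCAS group, or 0.973, 0.299 and 0.466 CPM against 0.554, 0.861 and 0.545 CPM. The groups overlapped, and the highest of the 6 values belonged to sham mouse 1. The log2FC was 0.17 (SE 0.49, edgeR adjusted P = 0.827), and its 95% confidence interval ran from -0.95 to 1.29. Pooled over mice, 61 against 59 counts gave a CPM ratio of 1.12, with an exact 95% interval of 0.770 to 1.63 that covers counting error only. Since each mate of a read pair added 1 count, the counts were not independent and this interval is too narrow. A change of Tlr5 within the fitted interval was not detectable. Leaving out sham mouse 1 gave a log2FC of 0.76 and leaving out sham mouse 2 one of -0.14, and the value was -0.087 when BCAS mouse 2 was left out.

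Among the endosomal receptors, Tlr7 and Tlr13 had narrow sham values and clear changes. TLR7 recognizes single-stranded RNA. Tlr7 (ENSMUSG00000044583.13, chrX:167304929-167330558, minus strand) had 3.18, 3.14 and 2.88 CPM in sham mice and 25.9, 29.7 and 46.9 CPM in BCAS mice. Its log2FC was 3.48 (SE 0.23, edgeR adjusted P = 2.27e-05), the smallest adjusted P of the family. TLR13, a receptor of mice that humans lack, recognizes bacterial ribosomal RNA. Tlr13 (ENSMUSG00000033777.4, chrX:106143204-106160493, plus strand) had 2.01, 2.60 and 2.53 CPM in sham mice and 18.3, 22.4 and 34.0 CPM in BCAS mice. For both genes the sham mice were close together, and BCAS mouse 3 stood above the other BCAS mice. The log2FC of Tlr13 was 3.38 (SE 0.25, edgeR adjusted P = 3.49e-05).

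Tlr9, whose protein recognizes unmethylated CpG DNA, changed less than Tlr7 in fitted value. The gene (ENSMUSG00000045322.10, chr9:106222598-106226883, plus strand) had 1.47, 1.08 and 1.31 CPM in sham mice and 7.35, 6.92 and 10.7 CPM in BCAS mice. All BCAS values lay above all sham values, with a log2FC of 2.69 (SE 0.24, edgeR adjusted P = 8.91e-05).

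Tlr8 was the rarest receptor in sham mice. It lies 40.6 kb from Tlr7 on chromosome X (ENSMUSG00000040522.5, chrX:167242696-167264329, minus strand) and codes for another receptor of the TLR7 subfamily. It gave 3, 2 and 0 counts in the sham group and 16, 39 and 35 in the BCAS group. Each sham mouse was thus at or under the limit of 3 counts, equal to 0.0874 to 0.0994 CPM in these libraries, while each BCAS mouse was above it. Pooled over mice, the 90 counts against 5 gave a CPM ratio of 19.5, with an exact 95% interval of 8.05 to 61.5 for counting error only. Each mate of a read pair added 1 count, so these counts were not independent and the interval is too narrow. The log2FC of Tlr8 was 4.19 (SE 0.74, edgeR adjusted P = 0.00334), with the widest confidence interval of the family, 2.52 to 5.87. Tlr8 passed the filter on low counts through the BCAS group, so its fitted fold is uncertain and its call depends on that filter.

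Tlr3, the receptor of double-stranded RNA, had by far the highest level of the family in sham mice and the smallest change among the receptors that were called. The gene (ENSMUSG00000031639.12, chr8:45395665-45411080, minus strand) had 19.1, 19.5 and 16.4 CPM in sham mice and 38.5, 34.3 and 49.9 CPM in BCAS mice. The groups did not overlap, and the means differed 2.23-fold. The log2FC was 1.16 (SE 0.15, edgeR adjusted P = 5.87e-04), close to the threshold of 1. Without BCAS mouse 3 it was 0.98 with an adjusted P of 6.83e-04, so Tlr3 was no longer called. With glmTreat, the edgeR test against the fold threshold itself, its adjusted P was 0.717. The exons of Tlr3 overlap an antisense gene, Gm45542, over 381 bases, and that gene had 0 counts in all 6 libraries although strand was ignored in counting.

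**Figure D2:**
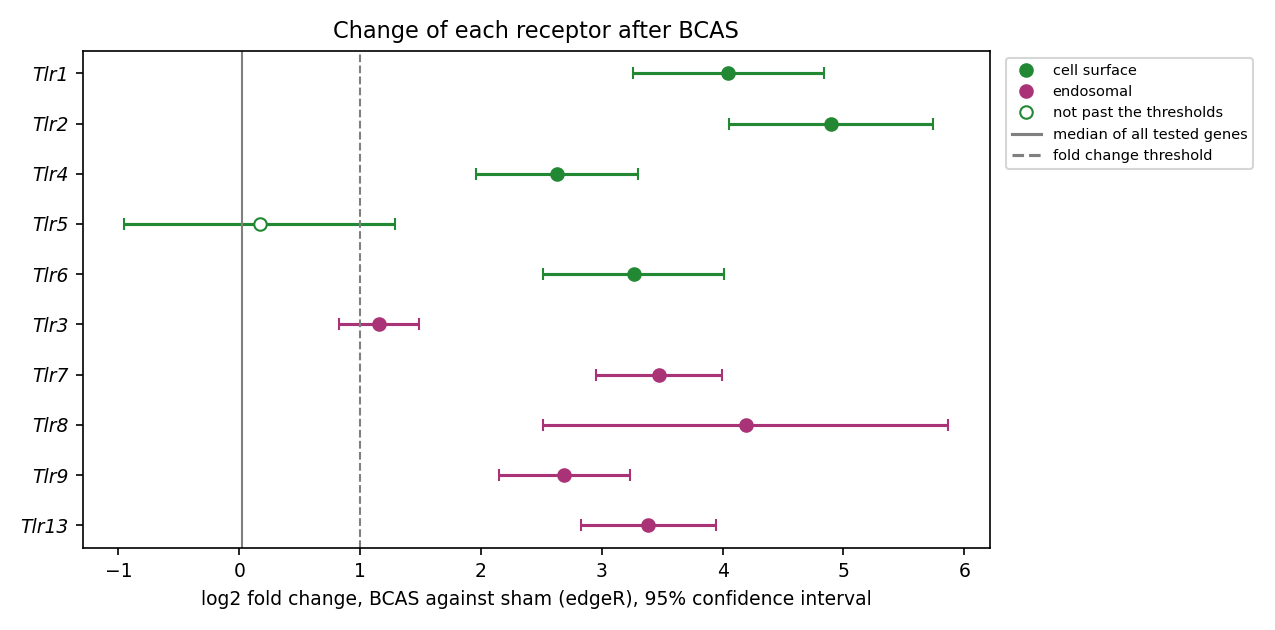
Fitted log2FC of BCAS against sham for each receptor with its 95% confidence interval; the solid line marks the median of all tested genes and the dashed line the fold threshold. Tlr5 spans 0, the interval of Tlr3 crosses the threshold, and the other 8 intervals lie above it.

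The mouse genome holds further TLR genes that were not counted as members. Tlr12, a receptor of profilin in endosomes, was called as well, with 14, 14 and 9 counts after sham surgery against 113, 102 and 147 after BCAS and a log2FC of 3.39 (edgeR adjusted P = 9.36e-05). Its count in sham mouse 3 was under the filter on low counts, which Tlr12 passed through the BCAS group. Tlr11 had at most 7 counts in any library and was not tested.

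To compare levels between receptors, CPM was divided by the exonic length in kb. In sham mice the order was Tlr3, Tlr7, Tlr13, Tlr2, Tlr9, Tlr4, Tlr1, Tlr6, Tlr5 and Tlr8, from 3.52 ± 0.322 down to 0.0138 ± 0.0126 CPM per kb (SD, n = 3). Tlr3 and Tlr7 each stood apart from the next receptor, while Tlr13, Tlr2 and Tlr9 overlapped in turn, as did Tlr4, Tlr1, Tlr6 and Tlr5. Only neighbours in the order were compared. Tlr2, from 0.254 to 0.714 CPM per kb, also overlapped Tlr7 (lowest value 0.706) and Tlr4 (highest value 0.2745). In BCAS mice the order was Tlr2, Tlr7, Tlr3, Tlr13, Tlr1, Tlr9, Tlr4, Tlr6, Tlr8 and Tlr5, from 13.8 ± 4.85 down to 0.136 ± 0.0376 CPM per kb (SD, n = 3). Neighbours overlapped throughout that order except between Tlr9 and Tlr4 and between Tlr6 and Tlr8. By the means, Tlr2 thus moved from the fourth place to the first, and Tlr5 from the ninth to the last.

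Summed over the 10 receptors, the level was 6.44, 6.86 and 5.79 CPM per kb in sham mice 1 to 3 and 34.8, 39.3 and 60.2 CPM per kb in BCAS mice 1 to 3. The sham mice lay close together, and the BCAS mice spread widely above them. Surface receptors made up 16.7%, 20.7% and 16.7% of this sum in sham mice and 41.8%, 45.4% and 46.2% in BCAS mice. Tlr3 took a share of 55.3% ± 1.47 in sham mice and 18.0% ± 2.88 after BCAS, and the share of Tlr2 was 7.18% ± 3.23 and 30.5% ± 2.22 (SD, n = 3). Shares of Tlr4, with 3.61% ± 0.778 and 3.25% ± 0.578, and of Tlr9, with 5.87% ± 1.18 and 5.43% ± 0.566, differed by less than the spread between mice. The share of Tlr1 was 3.20% ± 0.834 and 7.53% ± 0.707.

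**Figure D3:**
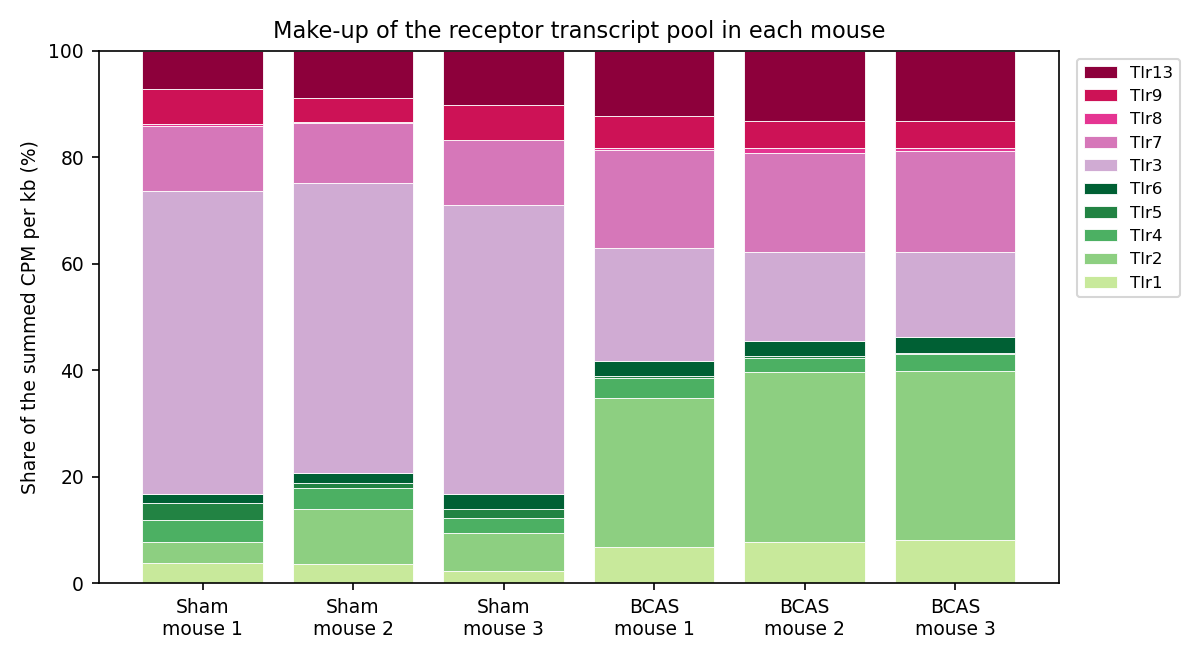
Share of each receptor in the summed CPM per kb of the family (%), with 1 bar per mouse, surface receptors in green at the bottom and endosomal receptors in purple above. In sham mice Tlr3 takes at least 54.4% of each bar, and in BCAS mice Tlr2 takes the most.

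Receptors that work as partners or are close relatives were compared within each mouse as the log2 ratio of their CPM with a prior count of 2. There were 5 such pairs. With 3 mice per group the smallest two-sided P of an exact permutation test is 0.1, so none can pass 0.05. Tlr1 relative to Tlr2 was lower in BCAS mice by a log2 difference of -0.98, and Tlr6 relative to Tlr2 by -1.80. Without sham mouse 1 the difference for Tlr1 was -0.49, and over all mice left out in turn it ranged from -1.24 to -0.49. The ratio Tlr9 to Tlr7 differed by -0.78 and Tlr5 to Tlr4 by -2.30. In these 4 pairs the groups did not overlap, with an exact permutation P of 0.1 and 0.125 after Benjamini-Hochberg adjustment over the 5 pairs. The denominators Tlr2, Tlr7 and Tlr4 rose by a log2FC of 4.90, 3.48 and 2.63, beside a median of 0.018 over all tested genes. Any gene that rose less gives a lower ratio. The share of all tested genes that separate likewise was not counted, so no trait particular to these pairs can be read from this. Spread was uneven, since the log2 ratio Tlr1 to Tlr2 ranged from -1.40 to 0.099 among sham mice but from -1.89 to -1.82 among BCAS mice. Tlr8 relative to Tlr7 gave a difference of -0.19 (exact permutation P = 0.9) and 0.78 with a prior count of 0.5, and at the first prior count it was 0.046 without sham mouse 1 and 0.029 without BCAS mouse 1, so no direction can be given.

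Promoters of the receptors were then read for 4 motifs, since 9 receptors rose together. RefSeq promoters of GRCm38.p6 were at hand for 8 receptors, not for Tlr4 and Tlr7, and the 250 bases before the start were searched on both strands. The letters were GAGGAA for the core of PU.1, a factor of myeloid cells, GAAA followed after any 2 bases by GAAA for an interferon-stimulated element, TTCNNNGAA for the GAS element of STAT factors and GGG followed after any 2 bases by TTTCC for a kappa B site. The PU.1 core was present in Tlr1, Tlr8, Tlr9 and Tlr13, 4 of 8 receptors, and in 23.3% of 32851 promoters. The GAS letters occurred in Tlr8 (7.02% of all promoters) and the kappa B letters in Tlr3 (1.41%), whose RefSeq window lies inside the gene span given above and thus downstream of its first annotated base. The interferon element occurred in none of the 8 and in 2.98% of all promoters. Tlr2 and Tlr6, which were called, and Tlr5, which was not, held none of the 4. Shown 5′ to 3′ on the strand of the gene, up to the first annotated exon base, are the 4 promoters with the PU.1 core and that of Tlr5 for contrast, with motif letters in capitals. They lie at chr5:64933564-64933808 (Tlr1, minus strand), chrX:167264330-167264579 (Tlr8, minus), chr9:106222348-106222597 (Tlr9, plus), chrX:106143025-106143203 (Tlr13, plus) and chr1:182954538-182954787 (Tlr5, plus). In Tlr8 the first capitals are the GAS letters and the second the PU.1 core read from the other strand.
Tlr1: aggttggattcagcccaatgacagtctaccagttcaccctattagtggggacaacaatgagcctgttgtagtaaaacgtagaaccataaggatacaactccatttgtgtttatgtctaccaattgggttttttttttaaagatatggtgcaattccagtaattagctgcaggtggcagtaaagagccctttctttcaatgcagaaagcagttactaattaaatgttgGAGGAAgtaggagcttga
Tlr8: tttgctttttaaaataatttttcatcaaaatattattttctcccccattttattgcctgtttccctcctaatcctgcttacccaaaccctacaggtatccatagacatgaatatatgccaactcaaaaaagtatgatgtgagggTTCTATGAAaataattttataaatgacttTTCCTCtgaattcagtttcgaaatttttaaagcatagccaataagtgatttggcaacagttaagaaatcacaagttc
Tlr9: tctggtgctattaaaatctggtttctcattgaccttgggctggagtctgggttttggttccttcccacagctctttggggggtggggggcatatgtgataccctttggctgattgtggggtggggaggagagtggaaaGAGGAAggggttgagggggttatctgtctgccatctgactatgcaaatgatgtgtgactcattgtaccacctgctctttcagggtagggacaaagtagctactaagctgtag
Tlr13: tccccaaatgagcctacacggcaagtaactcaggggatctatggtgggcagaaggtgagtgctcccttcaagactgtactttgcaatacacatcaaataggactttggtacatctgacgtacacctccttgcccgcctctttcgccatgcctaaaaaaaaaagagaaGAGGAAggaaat
Tlr5: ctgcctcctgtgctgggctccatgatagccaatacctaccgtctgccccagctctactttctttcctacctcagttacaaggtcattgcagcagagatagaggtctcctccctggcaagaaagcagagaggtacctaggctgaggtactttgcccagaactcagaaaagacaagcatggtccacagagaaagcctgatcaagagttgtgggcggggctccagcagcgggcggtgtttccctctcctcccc
The PU.1 core starts 23 bases before the RefSeq start in Tlr1, 77 in Tlr8, 112 in Tlr9 and 83 in Tlr13. These matches are letters only and say nothing of binding in these mice.

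Genes that work with the receptors were taken from 8 lists with 88 genes, of which 79 were tested. Of these 32 were called higher, 0 lower and 47 in neither direction, that is 40.5% higher against 8.47% of all tested genes, with a median log2FC of 0.85. By adjusted P alone, which held for 18% of tested genes as higher and 13.2% as lower, 49 of them were higher and 6 lower. The latter were Sarm1, Ube2n, Tollip, Cyld, Ptgs2 and Hspd1. Some of the 32 genes called higher passed the filter on low counts through the BCAS group and are named below.

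Co-receptors rose in 3 of 6 cases. They were Cd180 (log2FC 4.55), a TLR4-like protein of B and myeloid cells, its partner Ly86 (4.17), and Cd14 (3.46), which hands lipopolysaccharide to TLR4. Ly96, which codes for the MD-2 subunit of the TLR4 complex, had a log2FC of 1.02 (SE 0.46, edgeR adjusted P = 0.126) and was not called. Among the genes of receptor transport and processing 6 of 11 rose: Ctss (3.87), Slc15a3 (3.87), Unc93b1 (2.84), Ctsl (2.15), Lgmn and Ctsb. Unc93b1 carries nucleic acid receptors to endosomes, and the cathepsins and legumain cut them there. The chaperones of TLR folding, Hsp90b1 (0.26) and Cnpy3 (0.057), were not called.

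Adaptor genes rose in 4 of 6 cases, led by Pik3ap1 (3.57), the BCAP adaptor, and Ticam2 (2.75), which links TLR4 to TRIF. Ticam2 had 10, 10 and 17 counts in the sham group. It passed the filter on low counts through the BCAS group, so its fitted fold is uncertain. Myd88 (1.26) and Ticam1 (1.10), the gene of TRIF, were called, with log2FC below those of 8 receptors. Kinases and ligases stood lower still, with 3 of 19 called: Btk (3.46), Ikbke (2.30) and Irak4 (1.89). Their median log2FC was 0.22, and core genes such as Traf6 (0.19), Map3k7 (0.066), Ikbkg (-0.056) and Tbk1 (-0.045) were not called. By adjusted P alone 8 of the 19 were higher, among them Ripk1 (0.95) and Irak2 (0.88).

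Transcription factors were called in 4 of 10 cases: Irf7 (4.31), the factor behind type I interferon downstream of TLR7 and TLR9, Irf5 (2.80), Nfkb2 (1.95) and Nfkb1 (1.11). Negative regulators rose in 4 of 11 cases, namely Il1rl1 (2.70), Nrros (1.61), Irak3 (1.36) and Socs1 (1.04). Il1rl1 had 8, 14 and 9 counts in the sham group. It passed the filter on low counts through the BCAS group, so its fitted fold is uncertain. Of the target cytokines 7 of 10 tested rose, and the largest fitted changes were those of Ccl3 (8.15), Ccl4 (5.59), Cxcl10 (5.18) and Tnf (4.71). In the sham group Ccl3 had 3, 2 and 1 counts, Ccl4 1, 2 and 10, Tnf 0, 0 and 5 and Cxcl10 21, 4 and 28. These genes passed the filter on low counts through the BCAS group, so their fitted folds and their order are uncertain. The same holds for Ccl5, with 12, 13 and 6 sham counts, and for Il1b. Il1b was called although its groups overlapped, with 23, 8 and 9 counts in the sham group and 14, 87 and 95 in the BCAS group. The other 6 targets, Il6, Il10, Il12b, Ifnb1, Cxcl1 and Cxcl2, had too few counts to be tested. Il6 had 0, 0 and 1 counts in the sham group and 10, 5 and 4 in the BCAS group, and Ifnb1 had 2 counts in BCAS mouse 3 and 0 in the other libraries. Genes of endogenous ligands rose in 1 of 6 cases, that of biglycan, Bgn (1.37), whereas Hmgb1 (-0.055) was not called. The list also held S100a8 and Saa3, which were not tested. Saa3, an acute phase protein, had 0, 1 and 0 counts in the sham group and 5, 381 and 79 in the BCAS group.

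**Figure D4:**
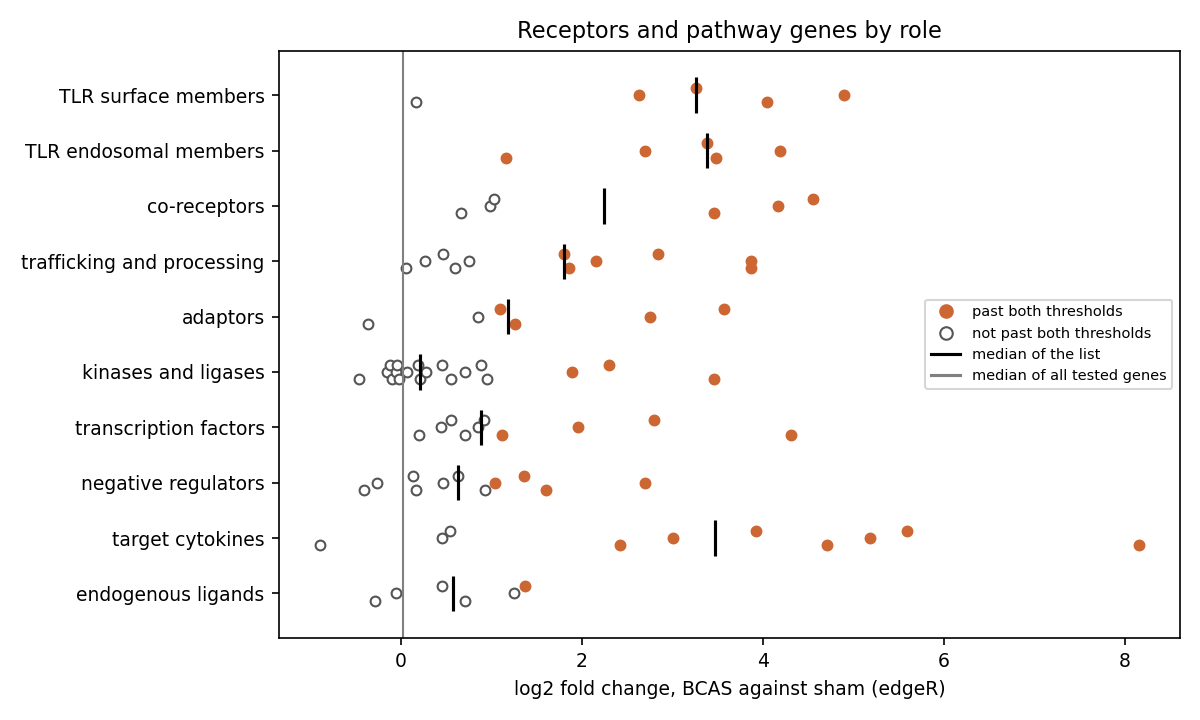
Fitted log2FC (BCAS against sham) of the receptors and of the pathway genes by role, with filled points for called genes, open points for genes not called, a black bar at the median of each list and a grey line at the median of all tested genes. Receptors, co-receptors and target cytokines have medians above 2.24, and kinases and ligases lie near 0.22.

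Microglia markers moved with the receptors. All 11 markers were called higher, from P2ry12 (log2FC 1.54) to Trem2 (4.33), with a mean of 2.86, and none was at 0 in any library. Together they reached 299.7 to 314 CPM in the sham group and 1803 to 2836 CPM in the BCAS group. In whole tissue a larger number of cells and more RNA per cell cannot be told apart. Relative to the marker mean in each mouse, Tlr1, Tlr2, Tlr7 and Tlr13 were higher in every BCAS mouse than in every sham mouse, Tlr3 and Tlr5 were lower, and Tlr4, Tlr6, Tlr8 and Tlr9 overlapped. Of all tested genes 1.13% were higher and 95.7% lower by the same measure, so the lower ratios of Tlr3 and Tlr5 are shared with most genes. This split depended on the markers. Against P2ry12, Tmem119, Sall1, Siglech and Cx3cr1, which are typical of resting microglia and had a mean log2FC of 2.09, 8 receptors were higher, 2 lower and 0 overlapped, beside 2.23% of all tested genes higher and 91.4% lower. Against Aif1, Itgam, Csf1r, Tyrobp, Trem2 and C1qa, with a mean of 3.50, 1 was higher, 5 lower and 4 overlapped, beside 0.478% of all tested genes higher and 97.4% lower. Tlr2 was higher under each of the 3 sets. Set against the 11 markers, Tlr2 had log2 ratios of -4.50, -3.05 and -3.86 in sham mice and -1.93, -1.62 and -1.63 after BCAS, so the BCAS mice, which differed in Tlr2 level, were close to each other once set against the markers.

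**Figure D5:**
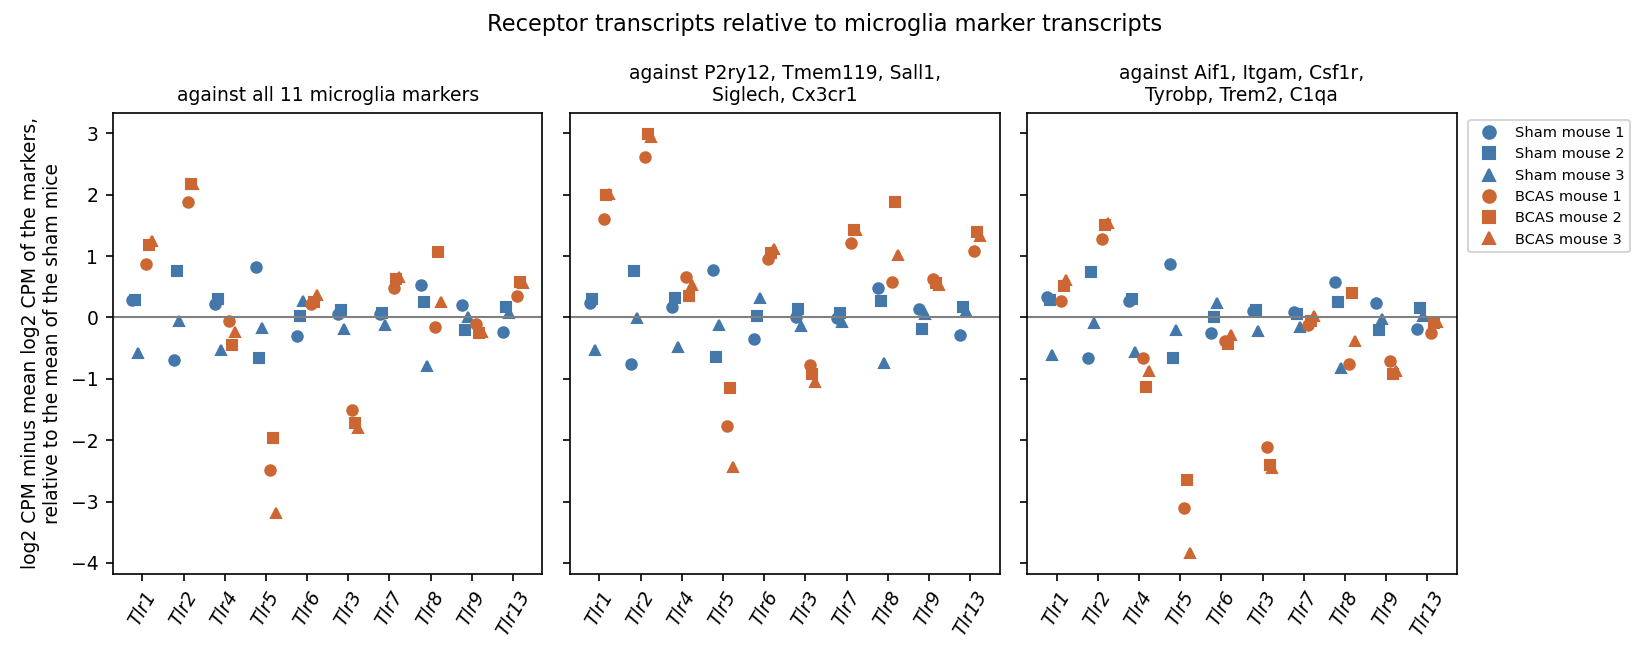
Log2 CPM of each receptor minus the mean log2 CPM of the microglia markers in the same mouse, centred on the sham mean, for 11 markers and for sets of 5 and 6 of them. Tlr2 lies above the sham mice and Tlr3 and Tlr5 below them in each panel, while the other receptors shift with the set.

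Markers of other cells moved too, where 8.47% of all tested genes were called higher and 0.999% lower. Monocyte markers were called higher in 3 of 5 tested cases (summed level 21.3 to 24.7 CPM in sham and 33.5 to 47.3 CPM in BCAS mice), border macrophage markers in 3 of 5 (9.36 to 13.8 and 23.4 to 31.2 CPM), T cell markers in 5 of 6 (2.12 to 2.71 and 7.82 to 9.58 CPM), dendritic cell markers in 2 of 6 (15.7 to 19.9 and 54.0 to 60.2 CPM, of which Itgax alone gave 0.466 to 0.568 and 35.9 to 43.9 CPM) and B cell markers in 1 of 2 (0.524 to 0.867 and 1.82 to 2.98 CPM). The other called dendritic cell marker, Xcr1 (log2FC 2.70), had 4, 0 and 1 counts in the sham group and 10, 10 and 12 in the BCAS group, while Flt3 (-0.30) and Zbtb46 (0.069), which are more abundant, were not called. Vcan, which was not called (0.45), gave 20.2 to 23.5 and 26.4 to 35.7 CPM of the monocyte sum, and the called ones were Ly6c2 (7.18), Plac8 (4.57) and Ccr2 (3.11). Ly6c2 had 0, 1 and 0 counts and Plac8 4, 0 and 4 counts in the sham group. Among the called T cell markers, sham counts were 1, 0 and 0 for Cd3d, 0, 3 and 5 for Cd3e, 2, 2 and 4 for Cd3g and 0, 6 and 4 for Cd8a. These genes of both lists passed the filter on low counts through the BCAS group, and their fitted folds are uncertain. The other called T cell marker, Cd4, had 10, 9 and 8 counts in the sham group and also passed that filter through the BCAS group. So did Xcr1 and the called B cell marker, Cd79b, which had 14, 7 and 10 sham counts. The fitted folds of Cd4, Xcr1 and Cd79b are uncertain too. Of 6 neutrophil markers 1 was tested and none called, and Ly6g was at 0 in every library. Astrocyte markers were called in 2 of 6 cases, with the summed level at 1397 to 1534 and 5379 to 5901 CPM, of which Gfap (log2FC 3.29) alone gave 346 to 427 and 3445 to 3921 CPM. None of 5 oligodendrocyte, 5 endothelial and 5 choroid plexus markers was called, and choroid plexus markers ranged from 70.0 to 4094 CPM among sham mice and from 40.1 to 5938 CPM among BCAS mice. Hippocampal neuron markers, present in every library, were called lower in 2 of 8 cases. By adjusted P alone 6 of 6 astrocyte and 3 of 5 endothelial markers were higher and 6 of 8 neuron markers lower. Of all tested genes 18% were higher and 13.2% lower by that measure. The part of these cells in the receptor values was not tested.

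The receptors with the highest mean CPM per kb over the 6 libraries were Tlr2 at the surface and Tlr3 in the endosome, although Tlr7 had the higher mean of the endosomal receptors in BCAS mice. The genes most like Tlr2 and Tlr3 were sought by the root mean square difference of centred log2 CPM over the 6 libraries, among 15629 genes of at least 1 CPM. For Tlr2 they were Cd52 (0.264), Ch25h (0.315) and Phf11b (0.321). For Tlr3 they were Nfkb1 (0.0454), Lhfpl2 (0.0513) and Sdf2l1 (0.0541), with log2FC of 1.11, 1.11 and 1.24.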

How the data were processed

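Whole right hippocampus of 3 sham and 3 BCAS mice was sequenced. The authors aligned trimmed reads to mm10 (HISAT2), assigned them to genes (featureCounts) and deposited the raw counts. Per the file headers each mate added 1 count, counting was unstranded, and multi-mapping reads did not count. The headers name featureCounts 2.0.3, the processing notes 1.6.3. Library totals were 29652456 to 35607098 counts, and a limit of 3 counts equals 0.0874 to 0.0994 CPM. This limit is for counting error only and takes mates as independent.

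Symbols were matched by Ensembl identifier, with 29 genes unmatched. Genes were kept by filterByExpr, normalized by TMM (0.964 to 1.05) and tested with edgeR 4.0.16 in R 4.3.3, without a replicate block, with Benjamini-Hochberg adjustment over 18617 genes. The common biological coefficient of variation was 0.161. Ratios were tested with scipy 1.17.1. The steps were tested on simulated data. Members and gene lists were chosen with earlier results of these data known. Named are all members, Tlr11 and Tlr12, up to 4 called genes with the largest change per list with those needed to say which were not called, and the 3 genes most like the leading surface and endosomal receptor. Il6, Ifnb1, Il1b, Ccl5, Saa3, S100a8, Ripk1, Irak2, Lgmn, Ctsb and the genes lower by adjusted P alone were named after their values were seen. A listed microglia marker is not reported here, and the set of 5 markers was chosen after seeing the data.

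Alternatives were DESeq2 1.42.0, limma-voom with limma 3.58.1, other scalings and filters, glmTreat, counts divided by the mates, a replicate block and leaving out each mouse. Mice are numbered by the sample titles; the BCAS columns inside the files carry the numbers 2 to 4, and the 2 numberings were not compared. By title, sham and BCAS libraries of the same number did not deviate together (residual correlations 0.036, -0.314 and -0.158), and nothing in the labels says that a number marks a pair.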

Additional observations from a re-analysis of the deposited data

How the results depend on the processing

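Over all alternatives tried, Tlr1, Tlr2, Tlr4, Tlr6, Tlr7, Tlr9 and Tlr13 were called higher, and so was Tlr8 wherever it was tested. With counts divided by the 2 mates, Tlr5 and Tlr8 fell below the filter. Tlr3 was not called with glmTreat or without BCAS mouse 3, and its adjusted P ranged from 2.16e-11 to 0.717. Tlr5 was not called under any alternative, and its log2FC ranged from -0.14 (without sham mouse 2) to 0.76 (without sham mouse 1). It was -0.087 without BCAS mouse 2.

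Leaving out each mouse in turn gave 8 to 9 receptors called, 4 to 5 of them endosomal and 4 at the surface, median log2FC of 2.95 to 3.45 at the surface and 3.09 to 3.56 in the endosome, and 29 to 37 pathway genes called higher and 0 to 1 lower. Over all tested genes it gave 1306 to 1976 calls, 1210 to 1746 higher and 96 to 238 lower, with 117 lower without sham mouse 3 and 96 without BCAS mouse 3. Against 1576 higher and 186 lower calls, glmTreat gave 818 calls, 804 higher and 14 lower, and adjusted P alone gave 5819, 3356 higher and 2463 lower. Adjusted P alone called 49 pathway genes higher and 6 lower. Tlr8 relative to Tlr7 was 0.78 with a prior count of 0.5, and leaving out each mouse gave -0.53 to 0.046. Library totals in place of TMM moved the median log2FC of all genes from 0.018 to 0.094. The replicate block gave 9 receptors called and 1437 genes higher and 158 lower, and since nothing shows that the title numbers pair the mice this value is no paired test. The causes of these shifts were not tested.

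Tlr5 and Tlr8 had the fewest counts and the widest intervals of the family. With 3 mice a group a single-gene exact test cannot pass 0.05.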
